A study of Homo sapiens with 8 samples.

Results

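The S phase and DNA replication genes are 35 genes whose products license, fire, copy and package DNA, or set the start of S phase. All 53 probe sets whose only symbol in the platform annotation is one of these genes were taken as members, of 22277 probe sets on the array. The 35 are among 11963 genes that could be named, and 14 of them have more than 1 probe set. The 8 Affymetrix arrays of the series cover 4 established cell lines from human ovarian cancer: OVCAR-3, CAOV-3, DOV-13 and SKOV-3. Each line gave 1 array of untreated cells and 1 array of cells given pI:pC (polyriboinosinic:polyribocytidylic acid), a synthetic double-stranded RNA that mimics the RNA of many viruses. All cells grew in medium with fetal bovine serum, and pI:pC was given at several concentrations, with the dose and duration behind an array not stated. Whether single or pooled cultures were used is not stated either.

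Values are the deposited log2 expression levels, and a difference is treated minus untreated on that log2 scale. The 8 array medians lay between 6.19 and 6.30, and the 2 arrays of a line correlated at 0.992 to 0.997, against 0.897 to 0.947 between lines. Of 10 ovarian and epithelial markers, KRT8, KRT18, KRT19 and PAX8 were well above the median gene in every untreated line, and the other 6 were not. EPCAM was under it in DOV-13 (5.42), MUC1 (6.496 and 5.77) and CLDN4 (5.45 and 5.27) in SKOV-3 and DOV-13, and MUC16 and WT1 in all lines but OVCAR-3 (4.05 to 4.80 and 4.89 to 5.08). The epithelial adhesion gene CDH1 was near the lowest values of the array in SKOV-3 (3.74) and DOV-13 (3.58) and at 9.70 and 9.41 in CAOV-3 and OVCAR-3. The leukocyte markers PTPRC and LYZ lay between 3.58 and 4.29 in the untreated lines, under the median gene, while CD14 reached 7.06 in CAOV-3. CD14 was lower in all 4 treated arrays, by 0.91 in CAOV-3 (to 6.15), 0.27 in OVCAR-3, 0.11 in SKOV-3 and 0.036 in DOV-13. The median of the 4 measured leukocyte markers was 4.33 to 5.02 untreated and 4.19 to 5.00 treated, and their part in the results was not tested. The interferon-stimulated genes, which show how strongly each line answered, had median differences of 0.12 in SKOV-3, 0.059 in DOV-13, 1.82 in CAOV-3 and 2.11 in OVCAR-3 over 21 measured genes.

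Cells copy their DNA once per cycle. In G1 the origin recognition complex, with CDC6 and CDT1, loads the MCM2 to MCM7 helicase onto origins, a step called licensing. In S phase CDC45 and the GINS complex turn that ring into an active helicase, polymerase alpha with primase starts each strand, and polymerases delta and epsilon extend it on the sliding clamp PCNA, which the RFC complex loads. Ribonucleotide reductase, thymidylate synthase and thymidine kinase supply the nucleotides. Many of these genes are transcribed late in G1 by E2F factors, which the retinoblastoma protein holds in check, and they are widely read as a sign of the share of cells near or in S phase. In bulk RNA a change in that share and a change in RNA per cell cannot be told apart.

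The E2F binding sequence is shown because many members have a match to it, a larger share than among all genes. The GGGCGG and CCAAT elements counted below were present for more members. Each promoter window in the RefSeq table (GRCh38.p14) holds 250 bases before and 50 after an annotated start, and 30 of the 35 members matched by symbol. The windows were searched on both strands for TTTCCCGC, TTTCGCGC, TTTGCCGC and TTTGGCGC, which can overlap each other on opposite strands. A match was present for 16 of the 30 members (53.3%), against 6.08% of the 9563 array genes with a window and 3.99% of all 27305 genes with one. The GGGCGG element was present for 24 of the 30 (80%, against 48.3% of the 27305 genes). The CCAAT element was present for 18 (60%, against 39.7%), and TTTGAA, the CHR element known from mitotic genes, for 2 (6.67%, against 18.2%). The shares of these further elements among array genes alone were not counted. Below are stretches upstream of the start for 9 members of different roles, 5′ to 3′ on the gene's strand, with matches on either strand in capitals and 20 bases around them where the start allows.
CDT1: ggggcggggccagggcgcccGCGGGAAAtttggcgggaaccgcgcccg
MCM3: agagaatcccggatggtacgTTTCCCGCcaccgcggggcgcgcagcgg
MCM6: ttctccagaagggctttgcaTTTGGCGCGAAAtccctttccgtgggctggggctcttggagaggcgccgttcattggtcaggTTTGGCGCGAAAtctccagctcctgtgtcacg
GINS2: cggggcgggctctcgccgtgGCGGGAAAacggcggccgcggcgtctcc
POLA1: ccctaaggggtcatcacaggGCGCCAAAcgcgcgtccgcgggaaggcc
PCNA: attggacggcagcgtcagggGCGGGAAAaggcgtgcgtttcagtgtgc
RFC3: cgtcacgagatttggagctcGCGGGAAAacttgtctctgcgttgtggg
TYMS: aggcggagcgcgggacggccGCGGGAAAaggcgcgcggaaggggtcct
E2F1: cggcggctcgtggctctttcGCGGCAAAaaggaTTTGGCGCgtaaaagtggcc

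The stretches lie at chr16:88803734-88803781 (plus strand) for CDT1, chr6:52284889-52284936 (minus) for MCM3 and chr2:135876502-135876615 (minus) for MCM6. They lie at chr16:85688958-85689005 (minus) for GINS2, chrX:24693761-24693808 (plus) for POLA1 and chr20:5126654-5126701 (minus) for PCNA. They lie at chr13:33818074-33818121 (plus) for RFC3, chr18:657594-657641 (plus) for TYMS and chr20:33686386-33686438 (minus) for E2F1. MCM6 has 4 matches in 2 places, where TTTGGCGC on the gene's strand overlaps TTTCGCGC on the other, and E2F1, itself an E2F gene, has 2 in the 53 bases shown. In CAOV-3 the 16 members with a match had a median difference of 0.27 and the 14 without one 0.25. A match is a description of the letters, and no binding was measured.

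Untreated levels of most members differed between the lines by more than the treated and untreated arrays of any line did. In 34 of 35 members the untreated range over lines was larger than every treated difference, FEN1 being the exception, and over all genes this held for 86%. The 4 lines differed for 34 of 35 members in limma's F-test of the line terms (Benjamini-Hochberg adjusted p under 0.05 over all genes), against 69.7% of all genes and 93.2% of genes at or above the median level, so this share is near that of other well-expressed genes. The test takes the 2 arrays of a line as repeats after removing the mean change with treatment, and they are not replicates of 1 condition. CAOV-3 had the highest untreated level for 15 members and SKOV-3 for 14, against 23.9% and 23.7% of all genes. OVCAR-3 had the lowest for 16 (26.1% of all genes). In line contrasts of the same fit, 21 members were higher in CAOV-3 than in OVCAR-3 and 2 lower, where 26.7% and 25.1% of all genes were called. Between SKOV-3 and OVCAR-3, 22 members were higher in SKOV-3 and 6 lower (27.3% and 23.7% of all genes). DOV-13 was higher than OVCAR-3 for 14 members and lower for 3 (26.7% and 22.9%), and higher than CAOV-3 for 8 and lower for 17 (26.1% and 24.4%). SKOV-3 was higher than CAOV-3 for 11 and lower for 16 (26.3% and 24.9%), and higher than DOV-13 for 12 and lower for 6 (19.2% and 18.9%). The untreated range was 1 log2 unit or more for 16 members (37% of all genes), and the order of the 4 lines was the same untreated and treated for 21 (40.2%).

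**Figure D1:**
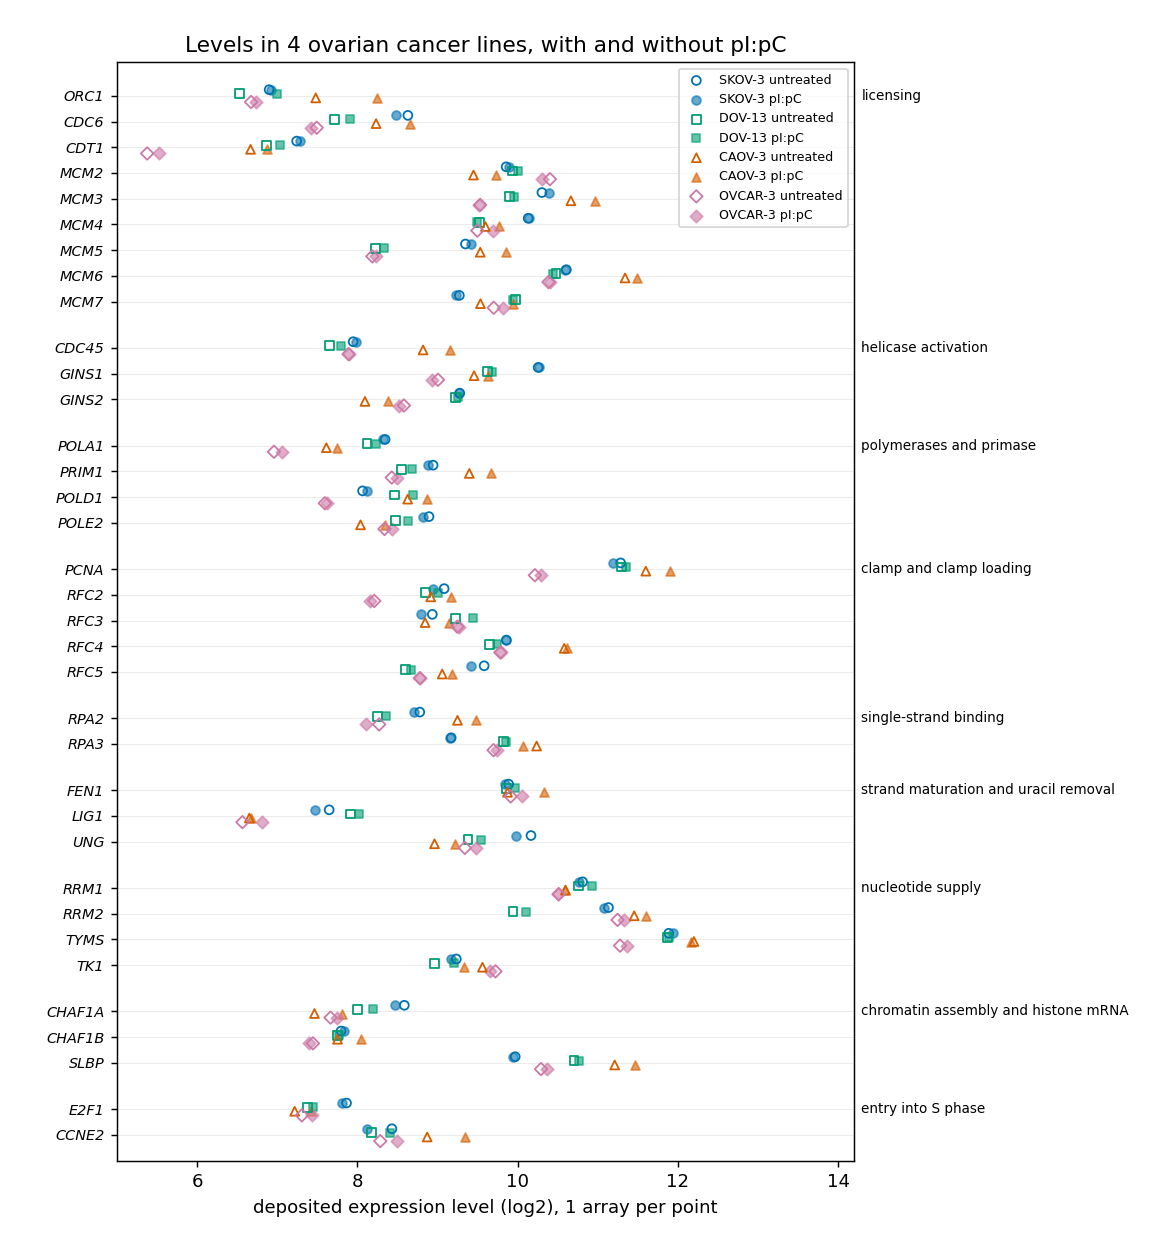
Deposited log2 level of each of the 35 genes (1 probe set per gene) on 8 arrays, by functional group; open markers are untreated arrays, filled markers arrays of cells given pI:pC, and colours are the 4 lines. Levels are to be read within a row, since probe sets differ in brightness; CDT1 is lowest in OVCAR-3, PCNA is lowest in OVCAR-3 and highest in CAOV-3, and the 4 untreated markers of FEN1 coincide.

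After pI:pC the members were higher together in CAOV-3, less so in DOV-13, and were mostly slightly lower in SKOV-3. In CAOV-3, 31 of 35 members had a positive difference (46% of all genes did), with a median of 0.25 against -0.018 for all genes. Of the 34 members at or above the median level 30 were positive there, where 48.9% of genes of that level were. In DOV-13, 32 were positive (60.3% of all genes), with a median of 0.10 against 0.034, and 64.7% of genes at or above the median level were positive. In OVCAR-3, 25 were positive (46.3% of all genes), with a median of 0.048 against -0.010, and 47.2% of genes at or above the median level were positive. In SKOV-3, 24 were negative (44% of all genes), with a median of -0.041 against 0.022, and 46.2% of genes at or above the median level were positive. The members' share of positive differences was thus above that of all genes in 3 lines and below it in SKOV-3. Over the 4 lines 33 members had a positive mean change, against 53.7% of all genes and 52.1% of genes at or above the median level, with a median of 0.084 against 0.0072. ORC1, CDT1, MCM5, CDC45 and POLD1 were higher in all 4 lines (6.88% of all genes), and 0 members were lower in all 4 (4.52%). Without CAOV-3, 28 members had a positive mean change, with a median of 0.042.

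These differences were small, and no member passed the test. In limma, blocked on cell line, an adjusted p under 0.05 was reached by 0 of 35 members and 0 of 11963 genes (0%), and 0.988 was the smallest adjusted p of any gene. In the same limma fit 291 genes were higher (2.43%) and 157 lower (1.31%) at an unadjusted p under 0.05, ORC1 alone of the members (adjusted p = 0.988). A difference of 0.5 or more was seen for ORC1 in CAOV-3 (2.87% of all genes were higher by that much there) and for 0 members in SKOV-3 (0.368%), DOV-13 (0.51%) and OVCAR-3 (0.828%). A difference of 0.25 or more, a size chosen after the values were seen, was reached upward by 19 members in CAOV-3 (9.72% of all genes and 12% of genes at or above the median level), by ORC1 alone in DOV-13 (7.16%), by 0 in OVCAR-3 (5.3%) and by 0 in SKOV-3 (8.28%). Downward it was reached by CCNE2 in SKOV-3 (5.66%). The 5 members above the 95th percentile of all genes in CAOV-3 (0.37) were ORC1, CCNE2, FEN1, CDC6 and MCM7. With 1 array per condition in a line, these differences have no replicate check within the line.

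**Figure D2:**
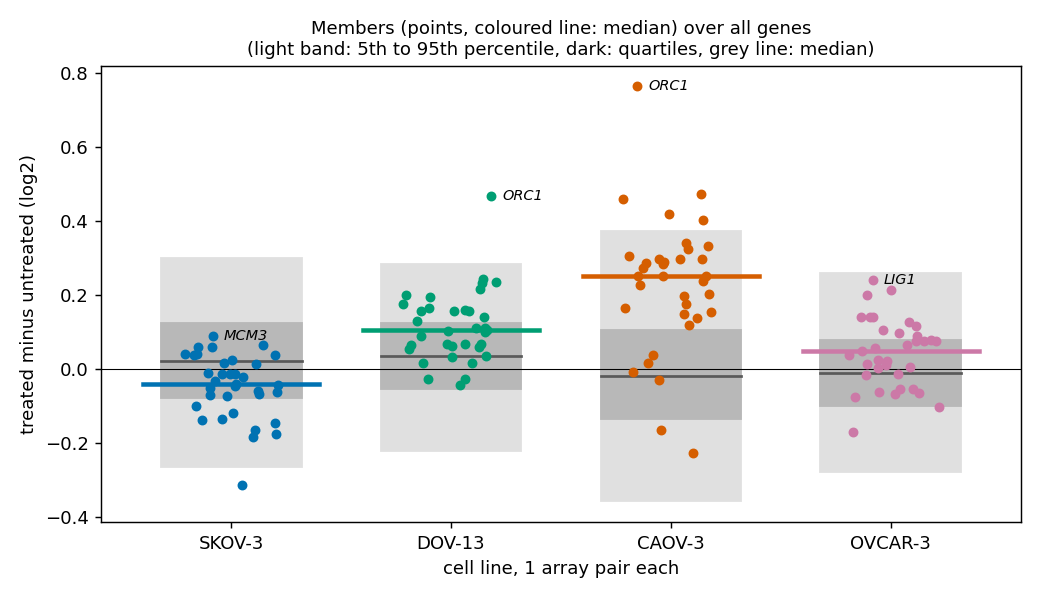
Treated minus untreated log2 difference of the 35 members (points; coloured bar, their median) in each line over the spread of all 11963 genes (light band, 5th to 95th percentile; dark band, quartiles; grey bar, median). In CAOV-3 the members' median of 0.25 lies above the upper quartile of all genes (0.11), and ORC1 stands above the other members in CAOV-3 and DOV-13.

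**Figure D3:**
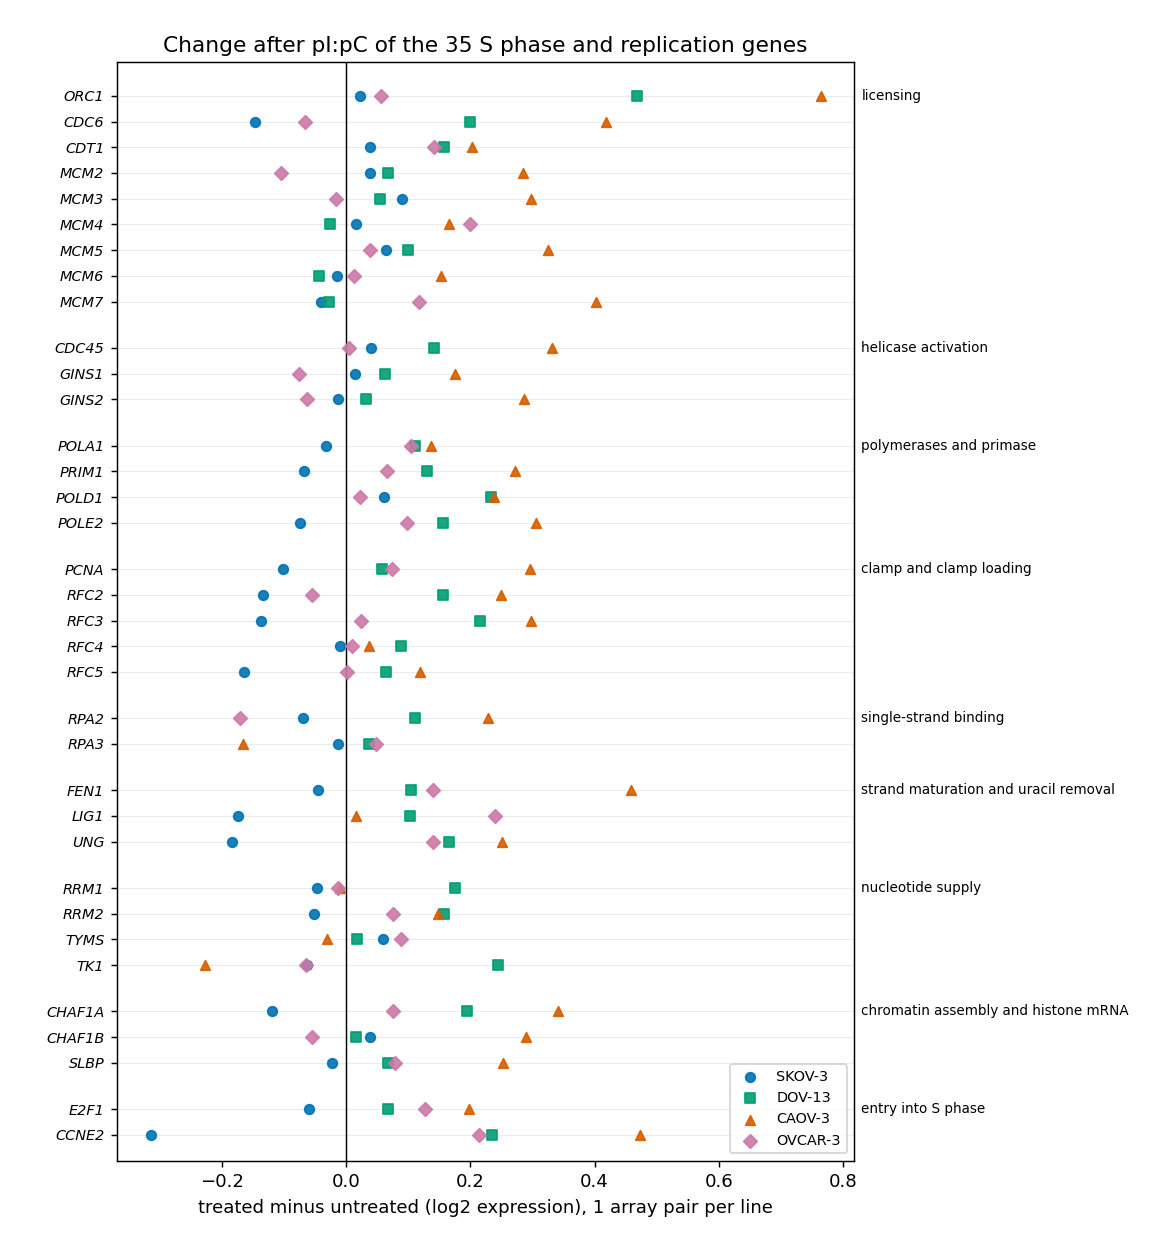
Treated minus untreated log2 difference of each member in the 4 lines, 1 array pair per point, by functional group. CAOV-3 (triangles) is to the right of 0 for all members but RPA3, RRM1, TYMS and TK1, and all 5 clamp and clamp loading genes are left of 0 in SKOV-3 (circles).

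Licensing genes were all higher in CAOV-3, and the mean change of all 9 was positive. The group's median difference was 0.30 there, against 0.068 in DOV-13, 0.039 in OVCAR-3 and 0.023 in SKOV-3. ORC1, the regulated subunit of the origin recognition complex, measured 7.48 untreated and 8.24 treated in CAOV-3, a 1.7-fold difference. In DOV-13 it stood at 6.53 untreated, under the median gene (6.70), and was higher by 0.47. It measured 6.90 and 6.92 in SKOV-3, and 6.67 and 6.73 in OVCAR-3, where the untreated median gene was also at 6.67. ORC1 has only 1 probe set. ORC1 was thus higher in all 4 treated arrays, by 0.76, 0.47, 0.023 and 0.056 in that order, with a mean of 0.33 ± 0.35 (SD, n = 4 lines), 0.18 without CAOV-3. CDC6, which takes part in loading the helicase onto origins, was untreated highest in SKOV-3 (8.63) and lowest in OVCAR-3 (7.49). Its differences were 0.42 in CAOV-3 (8.23 to 8.65), 0.20 in DOV-13 (7.71 to 7.91), -0.15 in SKOV-3 and -0.066 in OVCAR-3. CDT1, the partner of CDC6 in loading, was higher in all 4 lines by 0.039 in SKOV-3, 0.16 in DOV-13, 0.20 in CAOV-3 and 0.14 in OVCAR-3. The mean of CDT1 was 0.14 ± 0.069 (SD, n = 4 lines), the most even of the licensing genes. Its untreated level spanned the widest range of all members, from 5.38 in OVCAR-3, under the median gene, to 7.24 in SKOV-3, a 3.65-fold span. Untreated CDT1 was also under the median gene in CAOV-3 (6.67).

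The 6 subunits of the MCM ring were higher in CAOV-3 by 0.15 to 0.40. MCM7 measured 9.54 untreated and 9.94 treated there, against 9.98 and 9.95 in DOV-13, 9.27 and 9.23 in SKOV-3, and 9.70 and 9.82 in OVCAR-3. The treated CAOV-3 array thus reached the level that DOV-13 had in both arrays. MCM5 was the MCM gene that was higher in all 4 lines, by 0.32 in CAOV-3, 0.065 in SKOV-3, 0.10 in DOV-13 and 0.039 in OVCAR-3. A further MCM5 probe set gave -0.0076 in SKOV-3 and -0.080 in OVCAR-3, so that pattern rests on 1 probe set. MCM3 differed by 0.30 in CAOV-3, 0.091 in SKOV-3, 0.055 in DOV-13 and -0.016 in OVCAR-3. In the same order MCM2 differed by 0.28, 0.039, 0.068 and -0.10, MCM4 by 0.17, 0.016, -0.026 and 0.20, and MCM6 by 0.15, -0.014, -0.043 and 0.013. The lines held the ring genes in different orders. Untreated MCM2 was highest in OVCAR-3 (10.40) and lowest in CAOV-3 (9.45), while MCM3, MCM5 and MCM6 were highest in CAOV-3 (10.67, 9.53 and 11.34) and lowest in OVCAR-3 (9.53, 8.19 and 10.39). MCM4 was highest in SKOV-3 (10.13, against 9.497 to 9.598 elsewhere) and MCM7 in DOV-13 (9.98). In the line contrasts MCM2 was lower and MCM3, MCM5 and MCM6 were higher in CAOV-3 than in OVCAR-3, with adjusted p at or under 0.000645 (limma, over all genes). MCM4 and MCM7 were not called between these lines (adjusted p = 0.502 and 0.897).

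The genes that activate the helicase were higher in CAOV-3, by 0.17 to 0.33, and differed by at most 0.14 elsewhere. CDC45, which joins the MCM ring to form the working helicase, measured 8.82 untreated and 9.15 treated in CAOV-3, and differed by 0.041 in SKOV-3, 0.14 in DOV-13 and 0.0049 in OVCAR-3. GINS1 and GINS2, subunits of the GINS complex, were higher in CAOV-3 by 0.17 and 0.29 and lower in OVCAR-3 by 0.075 and 0.062. Their differences were 0.062 and 0.032 in DOV-13 and 0.014 and -0.013 in SKOV-3. Untreated CDC45 was highest in CAOV-3 (8.82, against 7.65 to 7.95 in the other lines), and it was called higher there than in each of them. Untreated GINS1 and GINS2 were highest in SKOV-3 (10.26 and 9.28), and GINS2 was lowest in CAOV-3 (8.09). The parts of 1 helicase were thus not ranked alike across the lines.

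All 4 polymerase and primase genes had a positive difference in DOV-13, CAOV-3 and OVCAR-3, as did the 3 genes of strand maturation and uracil removal and the 2 of entry into S phase. The medians there were 0.14, 0.26 and 0.082, and in SKOV-3 it was -0.050. POLD1, the catalytic subunit of polymerase delta, was higher in all 4 lines, by 0.24 in CAOV-3 (8.63 to 8.87), 0.23 in DOV-13 (8.46 to 8.70), 0.061 in SKOV-3 (8.07 to 8.13) and 0.023 in OVCAR-3 (7.59 to 7.62). POLE2, a subunit of polymerase epsilon, differed by 0.31 in CAOV-3, 0.16 in DOV-13, 0.099 in OVCAR-3 and -0.074 in SKOV-3. PRIM1, the catalytic primase subunit, differed by 0.27, 0.13, 0.066 and -0.067, and POLA1, the catalytic subunit of polymerase alpha, by 0.14, 0.11, 0.10 and -0.032 in the same order. SKOV-3 was thus the low line for 3 of the 4. Untreated POLA1 spanned 6.96 in OVCAR-3 to 8.35 in SKOV-3, and PRIM1 8.43 in OVCAR-3 to 9.40 in CAOV-3. Untreated POLE2 spanned 8.04 in CAOV-3 to 8.89 in SKOV-3.

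On the probe sets used, all 5 clamp and clamp loading genes were higher in CAOV-3 and DOV-13 and lower in SKOV-3. PCNA, the sliding clamp, measured 11.60 untreated and 11.90 treated in CAOV-3, 11.30 and 11.36 in DOV-13, 11.29 and 11.19 in SKOV-3, and 10.22 and 10.29 in OVCAR-3. OVCAR-3 held the least PCNA with and without pI:pC, and was called lower than each other line. RFC3 differed by 0.30 in CAOV-3, 0.22 in DOV-13, 0.024 in OVCAR-3 and -0.14 in SKOV-3. RFC2 differed by 0.25, 0.16, -0.054 and -0.13, RFC5 by 0.12, 0.065, 0.0016 and -0.16, and RFC4 by 0.037, 0.089, 0.0099 and -0.010 in the same order. These 4 encode small subunits of the clamp loader. Further RFC5 probe sets gave -0.018 and 0.42 in DOV-13, and a further RFC2 probe set gave 0.17 in OVCAR-3. RFC4 stood at 10.58 in untreated CAOV-3, above 9.65 to 9.86 in the other lines, and had the smallest difference of the group there. Untreated RFC5 was highest in SKOV-3 (9.58) and lowest in DOV-13 (8.60) on the probe set used. A further RFC5 probe set had the same highest and lowest line (9.01 and 7.92). The dimmest RFC5 probe set was instead highest in DOV-13 (7.40), with SKOV-3 at 7.07 and OVCAR-3 lowest (6.64). Untreated RFC2 spanned 8.21 in OVCAR-3 to 9.08 in SKOV-3. RFC3 spanned 8.85 to 9.25 on the probe set used, and 8.11 in CAOV-3 to 8.85 in DOV-13 on its other probe set.

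The 2 subunits of the single-strand binding protein RPA went opposite ways in CAOV-3. RPA2 measured 9.25 untreated and 9.48 treated there, and RPA3 10.24 and 10.07. In OVCAR-3 the signs were turned, with RPA2 lower by 0.17 (8.27 to 8.10) and RPA3 higher by 0.048. In DOV-13 both were higher, by 0.11 and 0.036, and in SKOV-3 both were lower, by 0.069 and 0.012. Untreated RPA2 and RPA3 were highest in CAOV-3, and RPA3 was lowest in SKOV-3 (9.17).

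FEN1, the flap nuclease that trims Okazaki fragments, was the member with nearly the same untreated level in every line on the probe set used. It measured 9.89 in SKOV-3, 9.86 in DOV-13, 9.87 in CAOV-3 and 9.91 in OVCAR-3, a range of 0.055, and its F-test between lines did not pass (adjusted p = 0.37). The treated arrays spread out, to 9.84, 9.96, 10.33 and 10.05 in the same order. The CAOV-3 difference of 0.46 was 1.37-fold, and a further FEN1 probe set gave 0.49 there. On that probe set untreated FEN1 spread more, from 9.12 in DOV-13 to 9.35 in SKOV-3. Its F-test between lines, over all probe sets, did not pass either (adjusted p = 0.46). LIG1, the ligase that seals the fragments, did not follow FEN1. It differed by 0.016 in CAOV-3 and 0.24 in OVCAR-3 (6.57 to 6.81), its largest, and by 0.10 in DOV-13 and -0.17 in SKOV-3. Untreated LIG1 was at 7.91 in DOV-13 and 7.65 in SKOV-3, and at 6.65 in CAOV-3 and 6.57 in OVCAR-3, both under the median gene. UNG, which removes uracil from new DNA, differed by 0.25 in CAOV-3, 0.17 in DOV-13, 0.14 in OVCAR-3 and -0.18 in SKOV-3, where its untreated level was highest (10.17, against 8.96 to 9.38).

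Nucleotide supply, like the RPA genes, did not share the CAOV-3 pattern of the other groups. Its median difference was -0.020 in CAOV-3, against 0.25 for all members, and 0.17 in DOV-13, its highest line. TK1, thymidine kinase, measured 9.56 untreated and 9.34 treated in CAOV-3, the largest negative difference of any member in that line (-0.23). In DOV-13 it measured 8.96 and 9.21, in SKOV-3 9.24 and 9.17, and in OVCAR-3 9.72 and 9.66. RRM1, the large subunit of ribonucleotide reductase, was higher in DOV-13 by 0.17. It differed by -0.0088 in CAOV-3, -0.013 in OVCAR-3 and -0.046 in SKOV-3. A further RRM1 probe set gave 0.050 in DOV-13, -0.14 in CAOV-3, -0.099 in OVCAR-3 and -0.17 in SKOV-3. RRM2, the small subunit, differed by 0.15 in CAOV-3 (11.46 to 11.60), 0.16 in DOV-13 (9.94 to 10.10), 0.075 in OVCAR-3 (11.25 to 11.32) and -0.051 in SKOV-3 (11.13 to 11.08). A further RRM2 probe set gave 0.40 in CAOV-3, so the size there depends on the probe set. TYMS, thymidylate synthase, differed by 0.059 in SKOV-3, 0.017 in DOV-13, -0.030 in CAOV-3 and 0.089 in OVCAR-3. Untreated RRM2 was lowest in DOV-13 by over 1 log2 unit, RRM1 spanned only 10.51 to 10.81, and TYMS spanned 11.28 in OVCAR-3 to 12.20 in CAOV-3.

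Genes for packaging new DNA were higher in CAOV-3 by 0.25 to 0.34. CHAF1A and CHAF1B encode subunits of the factor that places histones on new DNA. CHAF1A measured 7.46 untreated and 7.81 treated in CAOV-3, 8.59 and 8.47 in SKOV-3, and 7.67 and 7.74 in OVCAR-3. In DOV-13 it was higher by 0.19, to 8.19. The CHAF1A probe set used carries the suffix that marks probes shared with other sequences, and the 2 others gave 0.42 and 0.26 in CAOV-3. In SKOV-3 they gave 0.14 and -0.00014, so the negative difference there was seen on the shared probes alone. CHAF1B differed by 0.29 in CAOV-3, 0.038 in SKOV-3, 0.017 in DOV-13 and -0.055 in OVCAR-3, from untreated levels of 7.75, 7.80, 7.76 and 7.45. SLBP, which binds histone messenger RNA, measured 11.21 untreated and 11.46 treated in CAOV-3 and 9.97 and 9.95 in SKOV-3. It differed by 0.068 in DOV-13 and 0.079 in OVCAR-3, from 10.70 and 10.29, and was called different between the lines in all 6 contrasts.

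Both genes for entry into S phase had a negative difference in SKOV-3 and a positive one in the other lines. This held for each on only 1 of its 2 probe sets. CCNE2, a cyclin that drives CDK2 at the start of S phase, measured 8.43 untreated and 8.12 treated in SKOV-3. On the probe sets used, this was the lowest difference of any member in any line (-0.31). CCNE2 measured 8.87 and 9.34 in CAOV-3, 8.17 and 8.41 in DOV-13, and 8.29 and 8.50 in OVCAR-3, so that SKOV-3 passed from second highest to lowest. Its mean of 0.15 ± 0.33 (SD, n = 4 lines) was smaller than its spread, and was 0.045 without CAOV-3 and 0.31 without SKOV-3. A further CCNE2 probe set gave -0.34 in SKOV-3, 0.58 in CAOV-3, 0.14 in DOV-13 and -0.0088 in OVCAR-3. There untreated SKOV-3 (7.20) was already under OVCAR-3 (7.28). E2F1, which drives many genes of this set, differed by 0.20 in CAOV-3, 0.068 in DOV-13, 0.13 in OVCAR-3 and -0.059 in SKOV-3. Untreated E2F1 was highest in SKOV-3 (7.86) and between 7.22 and 7.38 in the other lines, which were not called different from each other. A dimmer E2F1 probe set gave 0.17 in SKOV-3, 0.095 in DOV-13, -0.0075 in CAOV-3 and -0.015 in OVCAR-3, so the signs of E2F1 in 3 of the lines depend on the probe set.

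**Figure D4:**
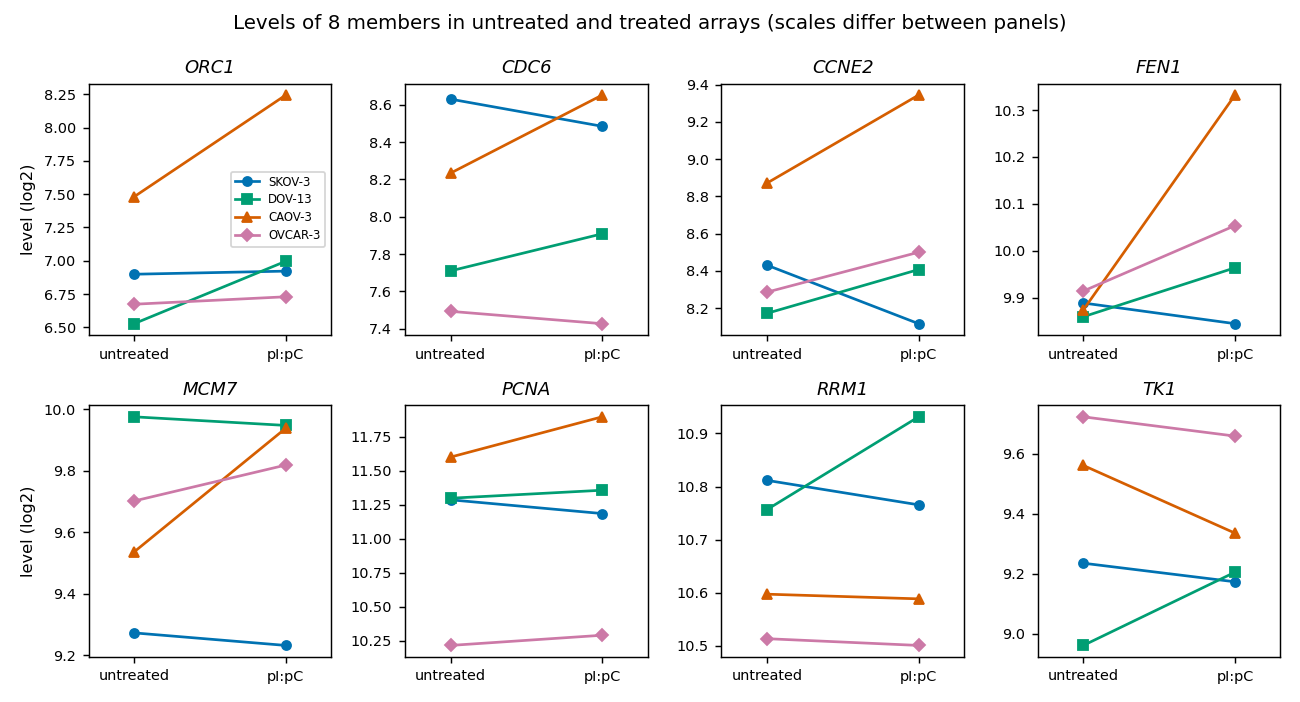
Deposited log2 level of 8 members in the untreated and the treated array of each line, 1 array per point and a scale of its own in each panel. ORC1, CCNE2, FEN1 and MCM7 are higher after pI:pC in CAOV-3, CCNE2 is lower in SKOV-3, and TK1 is lower in CAOV-3 and higher in DOV-13.

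Other replication genes followed the members only in part. Of 46 listed, 41 were measured, and 0 passed the test (limma, adjusted p under 0.05). The mean change was positive for 26 and negative for 15, where 53.7% of all genes were positive. Their median difference was -0.080 in SKOV-3, 0.098 in DOV-13, 0.12 in CAOV-3 and 0.0067 in OVCAR-3. MCM10, which helps to activate the helicase, differed by 0.55 in CAOV-3, 0.18 in DOV-13, 0.32 in OVCAR-3 and -0.27 in SKOV-3. The fork protein gene TIPIN differed by 0.40, 0.35, 0.15 and -0.083, and the primase subunit gene PRIM2 by 0.34, 0.36, -0.0029 and 0.020 in the same order. SAMHD1, a nucleotide triphosphohydrolase that lowers the nucleotide pool and is also known as an interferon-induced antiviral gene, stood apart. It measured 6.71 untreated and 8.24 treated in CAOV-3 and 5.83 and 6.13 in OVCAR-3, and differed by 0.15 in SKOV-3 and -0.015 in DOV-13. Of 19 S phase regulators 18 were measured, and 0 passed. Among them 8 had a positive and 10 a negative mean change, against 53.7% positive over all genes. CCNE1, the other cyclin E gene, differed by 0.64 in CAOV-3, 0.033 in DOV-13, 0.11 in OVCAR-3 and -0.12 in SKOV-3, from an untreated level of 10.48 in OVCAR-3 against 7.66 to 8.32 elsewhere. The phosphatase gene CDC25A differed by 0.50, 0.24, 0.073 and 0.0014 in the same order. RBL2 (p130), which represses E2F targets in resting cells, was lower in all 4 lines, with differences of -0.49, -0.098, -0.32 and -0.064. E2F5, a repressing E2F, differed by -0.085, 0.033, -0.15 and -0.36. RB1, the gene of the retinoblastoma protein, was near the lowest values of the array in CAOV-3 (3.69 untreated and 3.50 treated). Untreated RB1 measured 9.62 in SKOV-3, 9.97 in DOV-13 and 8.64 in OVCAR-3, and its part in the members' differences was not tested.

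Mitotic genes, which follow S phase in the cycle, lay on the opposite side in CAOV-3. All 18 measured G2/M genes were lower there (6456 of all 11963 genes were), with a median of -0.43, against 0.25 for the members. In OVCAR-3, 16 of 18 were lower (6418 of all 11963 genes), with a median of -0.095. In DOV-13 and SKOV-3 their medians were 0.078 and 0.015. KIF20A and DLGAP5, which act in mitosis, differed by -0.88 and -0.87 in CAOV-3, CCNB2 by -0.69 and CDC25C by -0.37. The part of cell cycle phase in the members' differences was not tested.

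**Figure D5:**
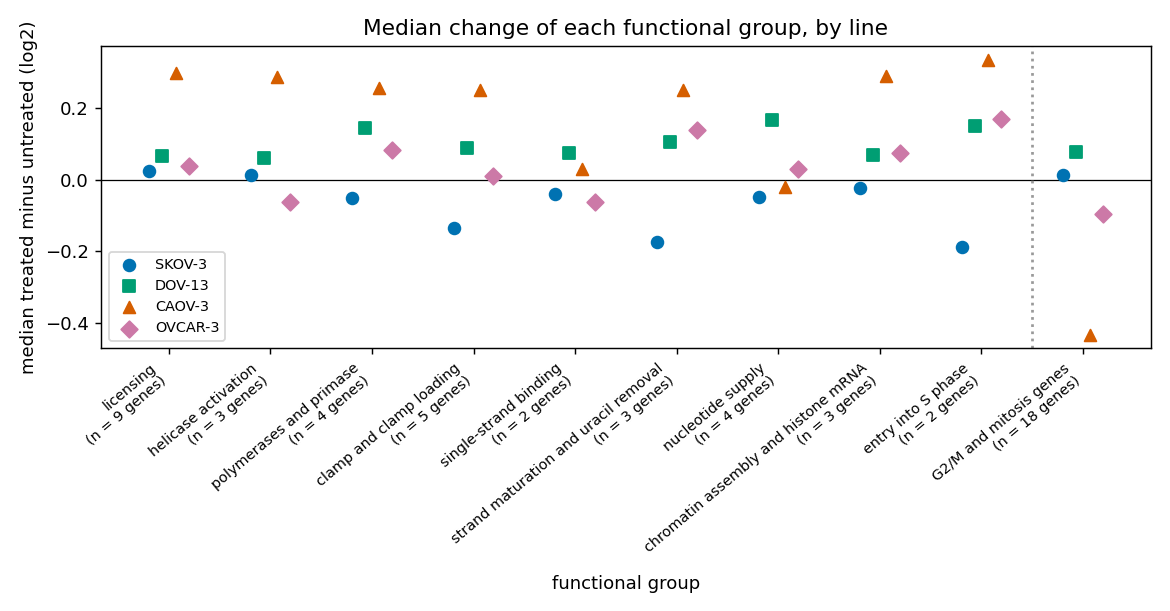
Median treated minus untreated log2 difference of each functional group of members, and of 18 G2/M and mitosis genes (right of the dotted line), in the 4 lines. In CAOV-3 (triangles) 7 of the 9 groups lie between 0.25 and 0.34, nucleotide supply is at -0.020, and the G2/M genes are at -0.43.

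Counted over all member probe sets the picture was much the same, but probe sets of a gene often disagreed in sign in SKOV-3 and OVCAR-3. Of all 53 member probe sets, 49 had a positive mean change (53.3% of all 22215 probe sets tested), and 14 were higher in SKOV-3 (53.1%), 49 in DOV-13 (60.8%), 47 in CAOV-3 (46.8%) and 37 in OVCAR-3 (47.4%). None passed the limma fit on all probe sets (0%), and at an unadjusted p under 0.05 the ORC1 probe set and 1 of CHAF1A were higher (2.35% of all probe sets). Within a line, probe sets of a gene disagreed in sign for 6 of the 14 genes with several in SKOV-3, 3 in DOV-13, 2 in CAOV-3 and 7 in OVCAR-3. A further CDC6 probe set, for example, gave 0.24 in OVCAR-3 and a further MCM7 probe set 0.11 in SKOV-3. Probe sets of a gene disagreed in sign of the mean change for RFC5 (0.0056, -0.034 and 0.14) and RRM1 (0.027 and -0.088). The 4 probe sets of MCM4 differed in SKOV-3, from -0.38 to 0.016, and all were higher in CAOV-3 and OVCAR-3. A second TYMS probe set was higher in CAOV-3 by 0.24, but it lay under the array median on 7 of 8 arrays.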

How the data were processed

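The authors deposited log2 expression levels per probe set for 8 arrays, and the submitters' processing notes name RMA. Its version, and whether the arrays went through it together, is not given in the sources used. RMA by its usual definition corrects background and brings arrays to 1 distribution, and it compresses differences of dim probe sets. The platform annotation named the probe sets (19070 with 1 symbol, 1043 with several, 2164 unnamed), and 62 array controls were left out. A gene was read from the probe set whose mean over the 8 arrays was highest.

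Treatment was tested with limma 3.58.1 in R 4.3.3 (lmFit, eBayes, block on cell line), two-sided, Benjamini-Hochberg adjusted over all 11963 genes, threshold 0.05, with 3 residual and 4.41 prior degrees of freedom. The cell line in the labels pairs the arrays: the arrays of every pair deviated together from their group means (correlation 0.936 to 0.965). The p-values measure the spread between lines. Line differences were tested in the same fit. Alternatives were the fit without the block, other choices of probe set, a level filter, quantile normalization, median centring, eBayes with trend and robust, and leaving out each line. The code was tested on simulated data. The members, the gene lists and the motif were chosen with earlier results of these data known. All 35 members are named, with the 4 largest mean changes of the lists of other replication, regulator, mitotic and interferon-stimulated genes where described; marker genes and other genes were named after their values were seen.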

Additional observations from a re-analysis of the deposited data

Results flagged for a closer look

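Of 70 sets of 4 values (the untreated levels and the differences of the 35 members), 3 held a value set apart from the other lines, and chance alone gives about 1 in 20. Untreated MCM4 stood at 10.13 in SKOV-3, against 9.497 to 9.598 in the other lines. Untreated CHAF1B stood at 7.45 in OVCAR-3, against 7.75 to 7.80. The difference of RRM1 was 0.17 in DOV-13, against -0.046 to -0.0088 in the other lines, which is a single pair of arrays. A further RRM1 probe set gave 0.050 in DOV-13 and -0.17 to -0.099 in the other lines.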

How the results depend on the processing

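No member and no gene was called for treatment under any alternative run, including the fit without the replicate block (0 calls; 9 genes higher and 0 lower at an unadjusted p under 0.05). The number of members with a positive mean change was 31 to 33 under other scaling, filter and probe set choices and 28 to 33 when a line was left out, and their median 0.042 to 0.13 when a line was left out. The line F-test called 33 or 34 members under other settings and 29 to 32 with a line left out. The negative count in SKOV-3 was not stable: 11 members were higher there as deposited and 15 after quantile normalization. In DOV-13 the count went from 32 to 29 after quantile normalization and 28 after median centring. The DOV-13 median went from 0.10 to 0.052 and 0.061 in that order. In OVCAR-3 the count went from 25 to 21 with the most variable probe set, and the median from 0.048 to 0.013. Members past 0.25 in place of 0.5 numbered 19 in place of 1 in CAOV-3, 1 in place of 0 in DOV-13 and 1 in place of 0 in SKOV-3. Of 280 member means under alternatives, 18 turned sign, over 11 members, none of them called. RRM1 became -0.030 with the mean and -0.088 with the most variable of its probe sets. RFC5 became -0.034 with the most variable probe set, -0.0077 with quantile normalization and -0.0063 with median centring. With a line left out, CDC6 ranged from -0.0043 to 0.18, MCM6 from -0.014 to 0.051, GINS2 from -0.014 to 0.10, RFC2 from -0.011 to 0.12, RFC5 from -0.032 to 0.062, RPA2 from -0.043 (-0.0034 without DOV-13) to 0.090, RPA3 from -0.047 to 0.024, LIG1 from -0.018 to 0.12, RRM1 from -0.023 to 0.051, TK1 from -0.12 to 0.039 and CHAF1B from -5.1e-05 to 0.11. The cause was not tested. The number of arrays limits every comparison, and signal over background is unknown.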
